A study of Mus musculus with 18 samples.

Results

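This account describes CD8 T cells sorted from tumour-bearing mouse livers and how their RNA differed between treated and untreated mice. The cells were chosen by their sort label, CD45+CD3+CD8+, which 6 of the 18 samples of the series carry, 3 treated (numbers 2, 11 and 19) and 3 untreated (numbers 1, 5 and 18). The mice were wild-type C57BL/6J animals bought at 7 weeks of age, and in all of them RAS and MYC oncogenes had been delivered by hydrodynamic tail vein injection, which carries DNA mainly into hepatocytes. Untreated mice had no drug. Treated mice received PolyIC, a synthetic double-stranded RNA, at 4 mg/kg with 200 µg of anti PD-L1 by intraperitoneal injection every other day, 6 doses in all; the protocol also lists an antibody to VEGF-A at 5 mg/kg that the treatment labels of these samples do not name. The tumours are driven by introduced oncogenes in otherwise normal mice, and the agents were given together, so their separate contributions cannot be told apart. The labels do not say whether each library came from 1 mouse, so p-values here measure the spread between libraries, which may be partly technical.

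CD8 T cells recognise peptides on MHC class I and kill tumour cells with granzymes, perforin and Fas ligand. Under lasting antigen they can enter a state called exhaustion, marked by several inhibitory receptors at once and by the transcription factors TOX, EOMES and BLIMP-1, while TCF-1 and LEF-1 mark naive and stem-like cells. PD-L1 on tumour and myeloid cells engages one of these receptors, PD-1, and antibodies to PD-L1 release that brake. Double-stranded RNA is sensed by TLR3 and by the cytosolic receptors RIG-I and MDA5, which induce type I interferon and, through it, interferon-stimulated genes.

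The libraries were not alike in lane or quality. By the lane number in their column names, untreated 1, untreated 18 and treated 19 were in lane 3. Untreated 5, treated 11 and treated 2 were in lane 2, so lanes were not balanced between the groups. Before scaling, 5 ribosomal loci (Rn18s-rs5, Lars2, mt-Rnr1, mt-Rnr2 and Gm15564) held 87.04% of the counts of untreated 1 and 79.73% of those of untreated 18, but 0.51% to 1.47% in the other 4 libraries. Outside these loci the 2 untreated libraries kept 606759 and 486461 counts, untreated 5 kept 6649609, and the treated libraries kept 3956755 to 18834538. A count of 0 therefore allowed a level of up to 5.08 and 7.91 CPM (the usual scaling of counts to library size) in untreated 1 and 18, at 3 counts each, against 0.16 to 0.68 CPM in the others; these limits cover counting error only. Unless another scaling is named, levels below are CPM of the counts outside the 5 loci after TMM scaling. Their order is untreated 1, 5 and 18, then treated 11, 2 and 19. Counting by strand is not stated in the sources used here, so a gene and an overlapping antisense gene cannot be told apart.

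The defining genes of the sort were present in all 6 libraries. Cd8a, the CD8 alpha chain, stood at 883, 1275 and 401 CPM in untreated and 1465, 1820 and 1783 CPM in treated libraries. Cd8b1, the beta chain, stood at 634, 1263 and 274 CPM and at 586, 1168 and 1137 CPM. Cd3e, a chain of the T cell receptor complex, stood at 324, 348 and 171 CPM and at 331, 489 and 543 CPM. Untreated 18 was the lowest library for all of these, and only Cd8a had no overlap between the groups. The 17 CD8 T cell markers summed to 5697, 10031 and 3150 CPM in untreated and 9189, 11137 and 10823 CPM in treated libraries, so untreated 5 lay among the treated libraries and untreated 1 and 18 lay below them. All 17 had a positive log2 fold change (treated minus untreated), with a median of 0.47; without untreated 1 and 18 only 7 of 17 did and the median was -0.24. In bulk RNA of this kind, fewer cells of a type and less RNA per cell cannot be told apart.

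Across all 11048 genes tested with edgeR's quasi-likelihood test, none passed a Benjamini-Hochberg adjusted p of 0.05, a background of 0%. The smallest adjusted p was 0.225, shared by 29 genes, and 643 genes had an unadjusted p below 0.05, 299 of them higher (2.71%) and 344 lower (3.11%) in treated cells. The 3 treated libraries lay wholly above the 3 untreated ones for 733 genes (6.63%) and wholly below for 386 (3.49%); 3 against 3 libraries cannot give an exact 2-sided p below 0.10. The median log2 fold change of all genes was 0.01. The call depended on 1 library and on the tool. Without untreated 5, 256 genes passed (37 higher, 219 lower). That setting leaves only untreated 1 and 18 as untreated libraries, so treatment and a large ribosomal share cannot be told apart in it. With no library left out, DESeq2 called 92 (45 higher) and limma voom with quality weights called 242 (118 higher). Both tools shared 66 genes, 71.7% of the DESeq2 calls and 27.3% of the voom calls. An edgeR fit of all 18 libraries called 23 genes in these cells, 22 of them higher, and 20 of the 23 were also DESeq2 calls. These 22 include Havcr2, PVRIG, Cd244, Entpd1, Prdm1, Glrx, Itih5 and Lgalsl. In what follows, values are given for each library and no member is called changed.

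**Figure D1:**
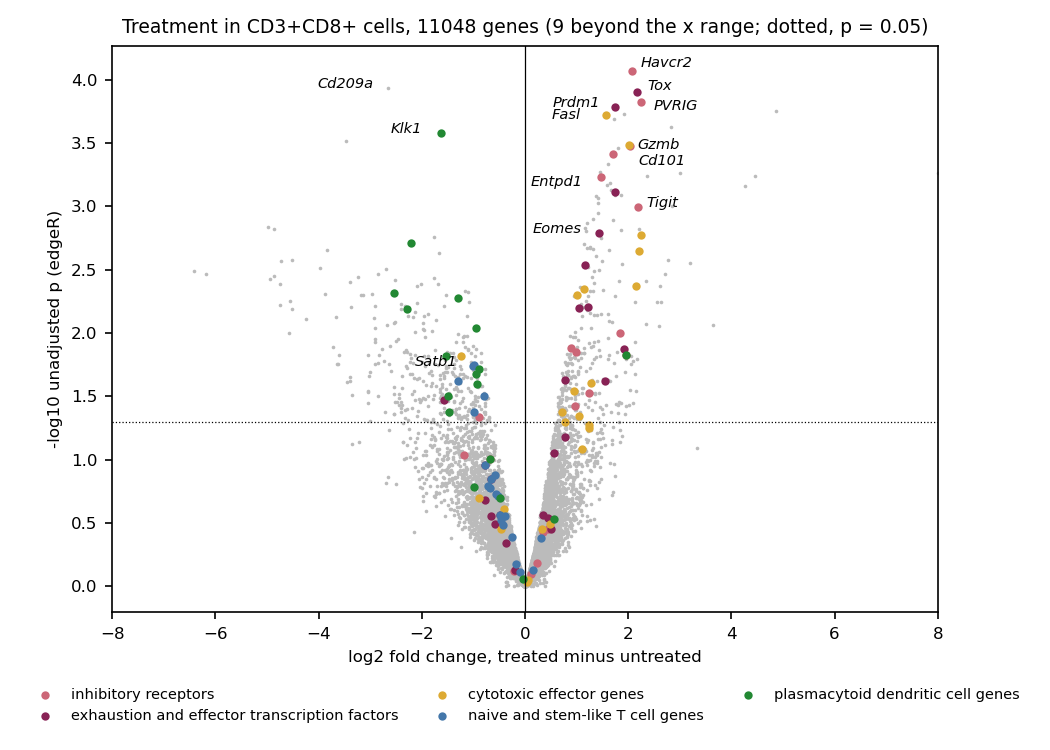
Each point is 1 of 11048 genes, with the log2 fold change (treated minus untreated) on the x axis and -log10 of the unadjusted edgeR p on the y axis. Inhibitory receptors, transcription factors and cytotoxic genes (reds and yellow) lie mostly at the upper right, naive genes (blue) and plasmacytoid dendritic cell genes (green) mostly at the left, and no gene passed the adjusted threshold.

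Inhibitory receptors mostly lay higher in treated cells, several of them in every treated library. Of 20 members tested, 16 had a positive log2 fold change. At an unadjusted p below 0.05, 12 were higher and 1 was lower, against 2.71% and 3.11% of all genes. For 11 the treated libraries lay wholly above untreated ones, against 6.63% of all genes. The median log2 fold change was 0.98, against 0.01 for all genes. Without untreated 1 and 18 the median was 0.82 with 17 of 20 positive. That setting leaves 1 untreated library, so only effect sizes are given for it, here and below. DESeq2 called 6 of the 20 and the 18-library fit 4, against 92 of 11048 and 23 of 13305 genes.

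Havcr2 encodes TIM-3, a receptor of chronically stimulated T cells (chromosome 11, 46454935 to 46481255, plus strand). Its level was 30.5, 38.6 and 34.3 CPM in untreated and 180, 97.1 and 167 CPM in treated libraries, and even the lowest treated library lay far above the highest untreated one. Its log2 fold change was 2.08 (SE 0.33, edgeR adjusted p 0.225, n = 3 against 3) and stood at 1.89 without untreated 1 and 18. PVRIG, a receptor for a nectin-family ligand (chromosome 5, 138341961 to 138343557), read 6.78, 9.61 and 7.91 CPM untreated and 31.9, 40.4 and 48.6 CPM treated, a log2 fold change of 2.24 (SE 0.38). Its untreated levels in libraries 1 and 18 sit near the limit that 3 counts give, while the treated libraries are all well above it. TIGIT, which competes with CD226 for the same ligands as PVRIG's relatives, is encoded on chromosome 16. Tigit read 49.1, 112 and 21.1 CPM untreated and 288, 267 and 339 CPM treated (log2 fold change 2.2, SE 0.48, edgeR adjusted p 0.261), or 1.37 without untreated 1 and 18.

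Pdcd1 encodes PD-1, the receptor whose ligand the antibody blocks. Its level was 44, 130 and 15.8 CPM in untreated and 185, 201 and 346 CPM in treated libraries. The groups did not overlap, but untreated 5 stood much closer to the treated libraries than untreated 1 and 18 did, and the log2 fold change of 1.83 (SE 0.58, edgeR adjusted p 0.618) was 0.87 against untreated 5 alone. Lag3, a receptor for MHC class II, read 13.6, 55.1 and 7.91 CPM untreated and 60.1, 68.9 and 222 CPM treated; treated 19 was the high library and treated 11 lay just above untreated 5. Entpd1 encodes CD39, an enzyme that breaks down extracellular ATP. It read 55.9, 59.5 and 89.6 CPM untreated and 165, 185 and 210 CPM treated, with no overlap and a log2 fold change of 1.48 (SE 0.30) that was 1.61 without untreated 1 and 18. Cd101, a surface protein of terminally exhausted cells, read 22, 24.7 and 15.8 CPM untreated and 58.8, 75.9 and 131 CPM treated. Ctla4, a receptor that competes with CD28, overlapped between the groups at 42.4, 34.6 and 18.4 CPM untreated and 45.8, 52 and 28.1 CPM treated. The group was thus not uniform: Btla and Nt5e had negative log2 fold changes of -1.18 and -0.90, and Ctla4 had 0.36.

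Transcription factors of exhausted and effector cells were mixed. Of 24 tested, 15 had a positive log2 fold change. At an unadjusted p below 0.05, 10 were higher and 1 lower, against 2.71% and 3.11% of all genes. Of the 24, 9 lay wholly above and 1 wholly below, against 6.63% and 3.49% of all genes. The median was 0.53 and, without untreated 1 and 18, 0.70. Tox, which sets up the exhausted state (chromosome 4, 6686353 to 6991557, minus strand), read 71.2, 115 and 47.4 CPM untreated and 326, 362 and 392 CPM treated. Its 3 treated libraries lay close together and far above the highest untreated library. The log2 fold change was 2.17 (SE 0.36, edgeR adjusted p 0.225), and 1.61 without untreated 1 and 18. Prdm1 encodes BLIMP-1, a repressor that drives terminal effector fate (chromosome 10, 44437177 to 44528501, minus strand). It read 22, 23.8 and 15.8 CPM untreated and 69.3, 71.1 and 73.5 CPM treated, with the treated libraries close together and a log2 fold change of 1.74 (SE 0.30). Eomes, a T-box factor of memory and exhausted cells, read 66.1, 91.6 and 36.9 CPM untreated and 184, 178 and 187 CPM treated (log2 fold change 1.44, SE 0.34, edgeR adjusted p 0.325). Nr4a2, a nuclear receptor induced by T cell receptor signals, read 20.3, 25.5 and 13.2 CPM untreated and 92.2, 48.3 and 70.7 CPM treated, again without overlap. Its relatives Nr4a1 and Nr4a3 did not share this, with log2 fold changes of -0.67 and -0.38 and overlapping groups. Ikzf3, Id2 and Bhlhe40, regulators of lymphocyte effector programmes, also lay higher without overlap, at 1.15, 1.05 and 1.22. Zfp683, the residency factor HOBIT, lay lower without overlap (-1.57), at 6.78, 3.84 and 5.27 CPM untreated and 1.35, 1.60 and 1.92 CPM treated, but untreated 1 and 18 are near their limit of 3 counts. Tbx21, the effector factor T-bet, overlapped at 0.44.

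Killing machinery was higher in treated cells by most of its members. Of 23 cytotoxic genes tested, 19 had a positive log2 fold change. At an unadjusted p below 0.05, 12 were higher and 1 lower, against 2.71% and 3.11% of all genes. Of the 23, 11 lay wholly above and 1 wholly below, against 6.63% and 3.49% of all genes. The median log2 fold change was 1.0, and 0.58 without untreated 1 and 18. Summed over the 23 genes, the level was 3912, 6649 and 4136 CPM in untreated and 13865, 12216 and 13801 CPM in treated libraries. Gzmb, a granzyme that activates caspases in the target cell (chromosome 14, 56258856 to 56262260, minus strand), read 327, 451 and 324 CPM untreated and 1742, 1142 and 1614 CPM treated. Its lowest treated library lay well above the highest untreated one. The log2 fold change was 2.03 (SE 0.38, edgeR adjusted p 0.225) and 1.69 without untreated 1 and 18. Gzma, a granzyme with trypsin-like activity, read 349, 988 and 741 CPM untreated and 4545, 2160 and 3237 CPM treated (2.26, SE 0.53). Gzmk, a granzyme of early-differentiated and exhausted cells, read 89.8, 285 and 52.7 CPM untreated and 682, 656 and 719 CPM treated, and its log2 fold change of 2.22 (SE 0.55) was 1.22 against untreated 5 alone.

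Fasl encodes the ligand of the death receptor FAS (chromosome 1, 161780689 to 161788495, minus strand). It read 79.6, 67 and 58 CPM untreated and 201, 218 and 192 CPM treated, with a log2 fold change of 1.57 (SE 0.28, edgeR adjusted p 0.225) that hardly moved, to 1.56, without untreated 1 and 18. Prf1, the pore-forming perforin, overlapped: 44, 101 and 36.9 CPM untreated and 82.8, 130 and 253 CPM treated (1.28, SE 0.49). Ccl5, a chemokine stored in cytotoxic cells, read 529, 1450 and 366 CPM untreated and 2479, 4014 and 3977 CPM treated. Here too untreated 5 was the highest untreated library, and the groups did not overlap. Slamf7, Tnfsf10 and Cst7 lay wholly above as well, at 1.15, 1.0 and 0.95. Xcl1, a chemokine that attracts cross-presenting dendritic cells, went the other way without overlap, at 61, 67.8 and 84.3 CPM untreated and 46.7, 29.4 and 14.2 CPM treated (-1.24, SE 0.43).

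**Figure D2:**
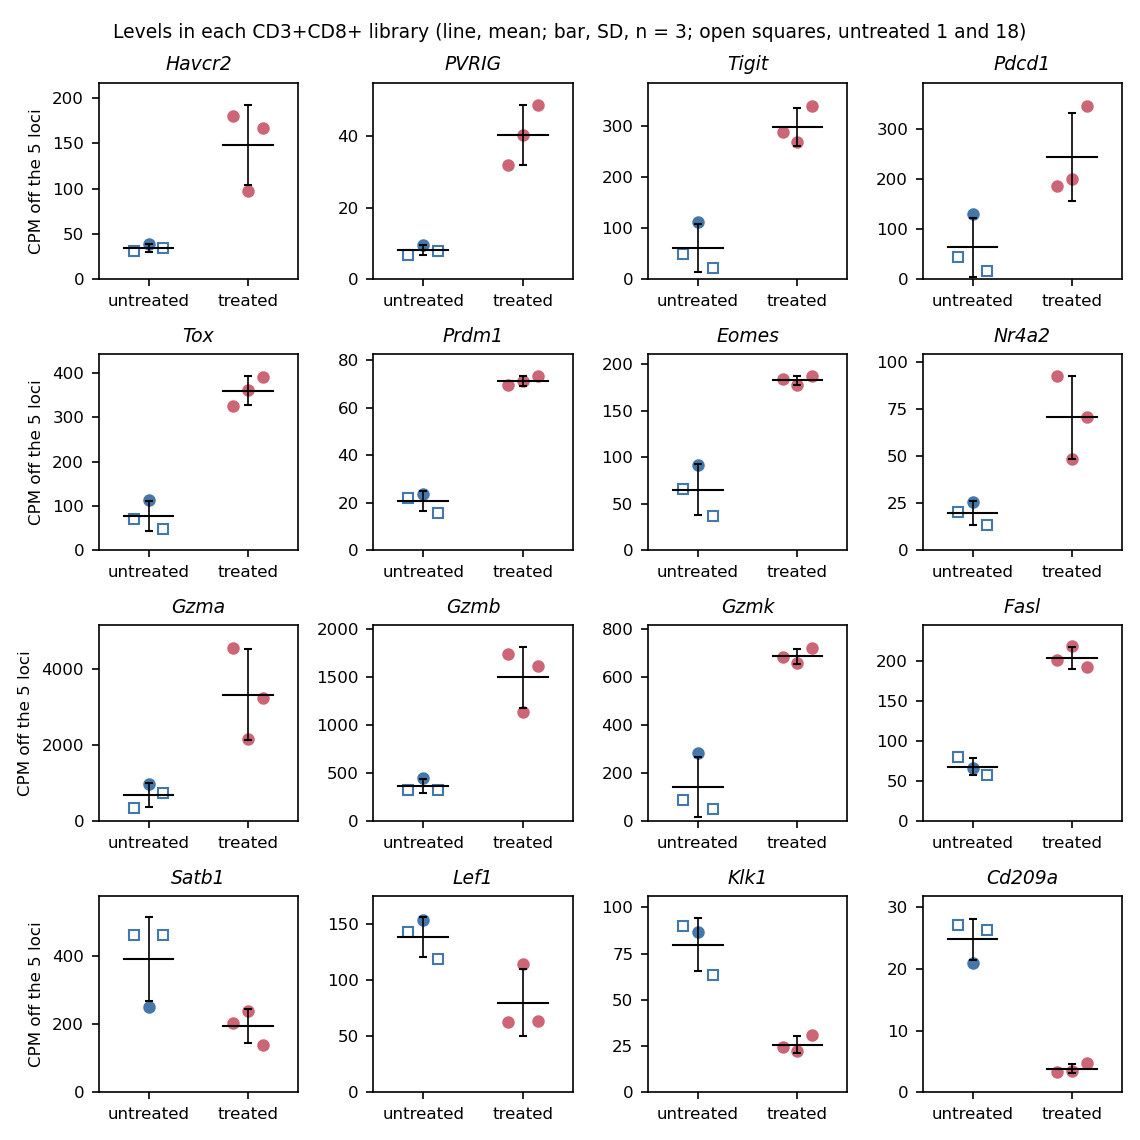
Each panel plots the CPM of 1 gene (linear y axis from 0) in 3 untreated and 3 treated CD3+CD8+ libraries, with open squares for untreated 1 and 18, a line for the mean and a bar for the SD. Treated and untreated libraries do not overlap in any panel, and for Tigit, Pdcd1 and Gzmk the untreated library with few ribosomal counts (filled) lies above the other 2 untreated ones.

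The 10 named genes with the smallest p-values among those wholly above were Havcr2, Tox, PVRIG, Prdm1, Lgalsl, Fasl, Glrx, Itih5, Gzmb and Cd101. Lgalsl encodes a galectin-related protein, Glrx a glutaredoxin that restores oxidised protein thiols, and Itih5 a heavy chain of an extracellular protease inhibitor. Lgalsl read 18.6, 22.1 and 15.8 CPM untreated and 96.7, 58.8 and 65.9 CPM treated (1.91, SE 0.34). Glrx read 33.9, 54.5 and 31.6 CPM untreated and 132, 135 and 146 CPM treated (1.72, SE 0.31). Itih5 had the largest fold of the 10, with 8.47, 9.34 and 2.64 CPM untreated and 90, 34.2 and 43.4 CPM treated (2.82, SE 0.51), and treated 11 was its high library. Its level lay below the 3-count limit of untreated 18 (7.91 CPM) and not far above that of untreated 1 (5.08 CPM), so the size of its fold is uncertain. All 3 kept a log2 fold change above 1.2 without untreated 1 and 18, at 1.69, 1.30 and 2.52.

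RefSeq's promoters (build GRCm38.p6) held 9 of these 10 genes under their own symbols or, for PVRIG, the symbol Pvrig. The 250 bases before each start were searched on both strands for 3 motifs of T cell activation and interferon, TGANTCA (bound by AP-1), TGTGGT (bound by RUNX factors) and GAAANNGAA (the core of interferon response elements); the motifs do not overlap one another in the 3 promoters printed. TGANTCA was present in 4 of the 9 (Havcr2, Prdm1, Glrx and Gzmb), against 6.75% of all 32851 promoters and 4.27% of the 10201 promoters whose symbol was tested. TGTGGT was present in 3 of the 9 (Havcr2, Gzmb and Cd101), against 14.0% of all promoters and 11.3% of those whose symbol was tested. GAAANNGAA was present in 0 of the 9, against 7.13% and 6.46%. The 9 are counted as genes, each once even with more than 1 promoter, while the percentages count promoters. Of the 10 genes of smallest p among those wholly below, 5 had a promoter in the table, and the AP-1 motif was present in 0, the RUNX motif in 2 and the interferon motif in 1 of them. A match is a description of the letters, not a bound site. Havcr2, Prdm1 and Gzmb are printed because they are the 3 immune regulators and effectors of the 10 that carry TGANTCA; all run 5′ to 3′ on the gene's strand and end at the base before the RefSeq start, with matches in capitals. Havcr2 covers chr11:46454681-46454930 (plus), Prdm1 chr10:44458749-44458998 (minus) and Gzmb chr14:56262335-56262584 (minus). The Prdm1 stretch precedes a RefSeq start inside the annotated gene, not the gene's outermost 5′ end.
Havcr2: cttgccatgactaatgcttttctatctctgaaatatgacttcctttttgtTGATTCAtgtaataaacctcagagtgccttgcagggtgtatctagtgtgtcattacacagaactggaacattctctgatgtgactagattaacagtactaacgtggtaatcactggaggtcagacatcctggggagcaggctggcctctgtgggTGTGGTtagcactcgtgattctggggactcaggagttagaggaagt
Prdm1: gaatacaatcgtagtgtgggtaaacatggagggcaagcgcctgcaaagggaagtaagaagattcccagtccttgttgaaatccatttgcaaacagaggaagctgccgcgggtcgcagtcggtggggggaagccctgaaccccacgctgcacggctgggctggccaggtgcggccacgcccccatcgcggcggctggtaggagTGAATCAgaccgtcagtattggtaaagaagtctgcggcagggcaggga
Gzmb: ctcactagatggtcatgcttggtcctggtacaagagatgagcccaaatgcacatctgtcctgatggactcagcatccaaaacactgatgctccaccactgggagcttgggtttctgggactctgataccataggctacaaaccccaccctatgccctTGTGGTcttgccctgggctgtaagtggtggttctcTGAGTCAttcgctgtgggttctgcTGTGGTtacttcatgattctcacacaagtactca
The match to TGANTCA starts 200 bases before the start in Havcr2, 48 before it in Prdm1 and 58 before it in Gzmb, and Gzmb carries TGTGGT on either side of it, 93 and 34 bases before the start.

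Cytokines showed no common direction. Of 11 tested, 5 had a positive and 6 a negative log2 fold change, with a median of -0.01. Il10, an anti-inflammatory cytokine, read 0, 3.71 and 0 CPM untreated and 16.4, 18.5 and 15 CPM treated, so the treated libraries lay above the 3-count limits of untreated 1 and 18 (5.08 and 7.91 CPM). The fitted log2 fold change was 2.77 (SE 0.70, edgeR adjusted p 0.407). Without untreated 5, the only untreated library with a count, the fit gave 9.59, a value set by the zeros; without any other single library it was 2.41 to 2.84. Csf1, a growth factor of macrophages, overlapped, at 5.08, 4.12 and 15.8 CPM untreated and 26.3, 15.3 and 78.2 CPM treated. Ifng and Tnf, the classical effector cytokines, also overlapped: Ifng read 52.5, 67.8 and 23.7 CPM untreated and 69.3, 96.7 and 40.5 CPM treated. Tnf read 11.9, 13.9 and 0 CPM untreated and 3.82, 7.75 and 5.81 CPM treated.

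Of 20 costimulatory receptors, 13 had a positive log2 fold change, with a median of 0.25 that was -0.05 without untreated 1 and 18. At an unadjusted p below 0.05, 4 were higher and 2 lower, against 2.71% and 3.11% of all genes. Tnfrsf1b, the TNF receptor 2, read 100, 129 and 97.5 CPM untreated and 212, 213 and 337 CPM treated (1.21, SE 0.31). Cd7, an immunoglobulin-family receptor, was split less clearly, at 156, 307 and 137 CPM untreated and 309, 379 and 760 CPM treated. Il12rb2, a chain of the interleukin-12 receptor, overlapped and had a negative value of -1.85, which was -0.18 without untreated 1 and 18.

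Naive and stem-like genes lay lower by small amounts. Of 21 tested, 19 had a negative log2 fold change. At an unadjusted p below 0.05, 5 were lower and 0 higher, against 3.11% and 2.71% of all genes. Of the 21, 4 lay wholly below and 0 wholly above, against 3.49% and 6.63% of all genes. The median was -0.56 and, without untreated 1 and 18, -0.54. Lef1, a partner of TCF-1 (chromosome 3, 131110471 to 131224356), read 142, 154 and 119 CPM untreated and 62.6, 114 and 63.1 CPM treated (-0.80, SE 0.32, edgeR adjusted p 0.771). Treated 2 lay just below untreated 18, so the gap between the groups was narrow. Satb1, a chromatin organiser of naive cells, read 463, 251 and 464 CPM untreated and 203, 239 and 140 CPM treated; untreated 5 lay beside treated 2, and the log2 fold change of -1.01 (SE 0.36) was -0.41 against untreated 5 alone. Il7r, the survival receptor of resting T cells, read 1159, 896 and 577 CPM untreated and 649, 395 and 285 CPM treated, with treated 11 above untreated 18. Tcf7, which encodes TCF-1, overlapped fully: 415, 629 and 206 CPM untreated and 252, 381 and 268 CPM treated (-0.48, SE 0.41). Foxp1, which holds T cells quiescent, and Cxcr5, a follicle-homing receptor of stem-like cells, had -0.98 and -1.30, and of these only Cxcr5 had no overlap. Cxcr5 is also a gene of B cells, whose other markers were high in untreated 18, where Cxcr5 read 84.3 CPM against 25.4 and 31 CPM in the other untreated libraries; the part of B cells in its value was not tested.

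Genes of tissue residency and of migration were split. Of 16 residency genes, 10 had a positive log2 fold change (median 0.28), and of 22 chemokine receptors and ligands 10 did (median -0.23). Neither direction held in every library set: the residency median was -0.08 without untreated 5, and the chemokine median was 0.48 without untreated 18, 0.12 without treated 19 and 0.81, with 15 of 22 positive, without untreated 1 and 18. Cxcr6, a receptor that holds T cells in the liver sinusoids, read 330, 382 and 208 CPM untreated and 780, 836 and 722 CPM treated (1.34, SE 0.35, edgeR adjusted p 0.437). It lay wholly above and had 0.99 without untreated 1 and 18. Of 14 genes of circulating effector and memory cells, 9 had a positive value (median 0.38): Fgl2, a secreted fibrinogen-like immunoregulator, lay wholly above at 108, 87.5 and 158 CPM untreated and 280, 220 and 277 CPM treated. Cx3cr1, the fractalkine receptor of circulating effectors, overlapped, because treated 2 stood at 245 CPM while treated 11 and 19 stood at 67.1 and 43.6 CPM against 15.2, 38 and 52.7 CPM untreated. Tcrg-C2, a constant segment of the gamma chain that gamma-delta T cells use, read 81.3, 127 and 58 CPM untreated and 414, 240 and 193 CPM treated (1.63, SE 0.40); CD8 alpha-beta T cells also transcribe this locus. It was the highest of 8 tested genes of gamma-delta and natural killer T cells, of which 3 were positive and 5 negative with a median of -0.78 (0.01 without untreated 1 and 18).

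Signalling downstream of the T cell receptor leaned higher in small steps. Of 28 genes, 23 had a positive log2 fold change with a median of 0.36, and without untreated 1 and 18 the median was 0.30 with 17 positive. At an unadjusted p below 0.05, 3 were higher and 1 lower, against 2.71% and 3.11% of all genes. Fyn, a proximal kinase, read 291, 423 and 269 CPM untreated and 585, 779 and 735 CPM treated (1.09, SE 0.34). Nfatc1, a calcium-activated factor, lay wholly above at 89.8, 98.2 and 103 CPM untreated and 129, 158 and 209 CPM treated. Ptpn6, the phosphatase SHP-1 that damps these signals and that myeloid and B cells also express, lay wholly below at 152, 233 and 156 CPM untreated and 64.4, 95.1 and 121 CPM treated (-0.96, SE 0.33). Immediate-early and AP-1 genes, which activation and cell handling both induce, leaned lower: 18 of 19 had a negative value, with a median of -0.52 in all libraries and without untreated 1 and 18, but only Ier5 had an unadjusted p below 0.05. Ier5 read 71.2, 62.2 and 100 CPM untreated and 35, 55.9 and 37.9 CPM treated. Jun was low in treated 11 and 19 (4.71 and 4.93 CPM) and not in treated 2 (47.9 CPM), against 69.5, 43.1 and 50.1 CPM untreated.

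Interferon-stimulated genes did not lie higher as a group in the cells of mice given double-stranded RNA. Of 56 tested, 24 had a positive and 32 a negative log2 fold change, and the median was -0.05. At an unadjusted p below 0.05, 0 were higher and 3 lower, against 2.71% and 3.11% of all genes. Of the 56, 1 lay wholly above and 3 wholly below, against 6.63% and 3.49% of all genes. Isg15, a ubiquitin-like protein among the most inducible of them, read 8.47, 30.3 and 7.91 CPM untreated and 12.8, 16.4 and 17.1 CPM treated. Irf7, which amplifies interferon production, read 47.4, 64 and 44.8 CPM untreated and 26.9, 39 and 44.9 CPM treated. Both overlapped between the groups, and their log2 fold changes were -0.21 (SE 0.52) and -0.52 (SE 0.32). Oasl2, Slfn5 and Ifi27l2a were the 3 lower members, at -1.55, -1.42 and -0.69, all with overlapping groups; for Oasl2 and Slfn5 the values without untreated 1 and 18 were -0.37 and -0.41. The direction of the list's median is not fixed: it was above 0 in 6 of 22 alternative treatments of the data. The sample time after the last dose is not stated in the labels.

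Of 24 sensors and adaptors of double-stranded RNA, 15 had a positive value and 0 had an unadjusted p below 0.05, with a median of 0.16. Ifih1, which encodes MDA5, read 42.4, 30.1 and 39.5 CPM untreated and 60.1, 59.5 and 41.6 CPM treated, and treated 19 lay below untreated 1. Of 22 genes of MHC class I presentation, 21 had a positive value with a median of 0.42, but 7 of 22 did without untreated 1 and 18, where the median was -0.08. Nlrc5, the transactivator of these genes, read 252, 245 and 190 CPM untreated and 266, 325 and 467 CPM treated (0.62, SE 0.32). Of 22 interferon-gamma-induced genes 16 had a positive value (median 0.16). Cd274, which encodes PD-L1, overlapped at 55.9, 41.7 and 63.3 CPM untreated and 50, 59.1 and 34.3 CPM treated.

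Proliferation and metabolism leaned little. Of 46 cell cycle genes, 14 had a positive value (median -0.23), with 0 at an unadjusted p below 0.05 in either direction. The median was 0.24 without untreated 5, 0.12 without treated 2, 0.04 without treated 19, -0.74 without treated 11 and -0.61 without untreated 1 and 18, so its direction rested on single libraries. Mki67, a proliferation marker, was high in treated 11 (407 CPM) and otherwise read 119 and 102 CPM treated against 268, 123 and 158 CPM untreated. Of 21 glycolysis genes 12 were positive (median 0.10, but -0.47 without untreated 1 and 18), and Hk1, the first enzyme of the pathway, read 45.7, 82.1 and 42.2 CPM untreated and 86, 116 and 160 CPM treated. Of 22 apoptosis regulators 10 were positive. Of 79 ribosomal protein genes, 71 had a negative value (median -0.46). The median was 0.25 without untreated 5 and -1.20 without untreated 1 and 18. The list was highest in untreated 5 with a summed 157422 CPM, against 70444 to 100412 CPM in the other 5. Of 70 nuclear genes of oxidative phosphorylation 30 were positive (median -0.05, from -0.48 without untreated 1 and 18 to 0.38 without untreated 5). The 13 mitochondrially encoded mRNAs summed to 111011, 67242 and 449318 CPM untreated and 172201, 60639 and 214640 CPM treated, and all 13 had a negative value with a median of -0.59 that was 1.12 without untreated 1 and 18.

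**Figure D3:**
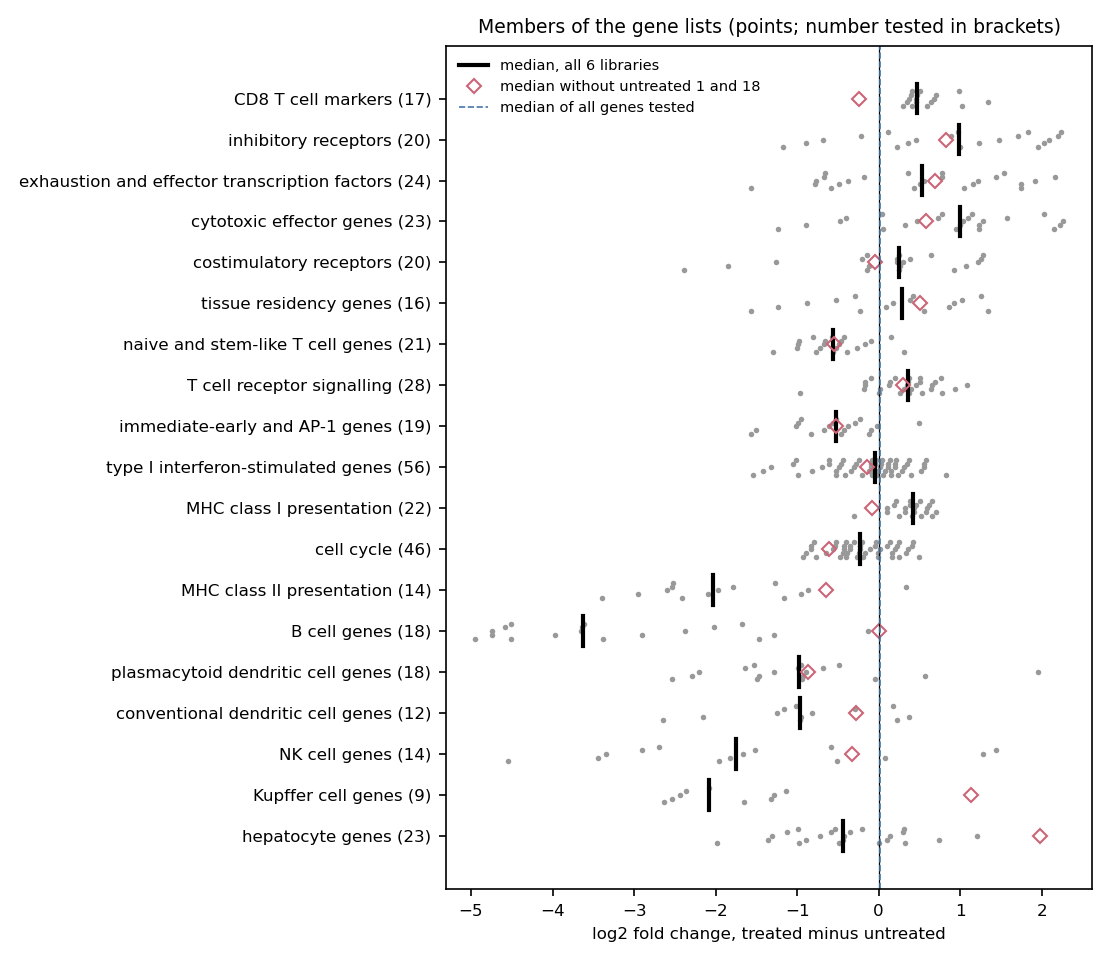
Points are the log2 fold changes (x axis, treated minus untreated) of each list's tested members; black bars mark the list medians and open diamonds the medians without untreated 1 and 18. Bar and diamond lie close for inhibitory receptors (0.98 and 0.82), naive genes (-0.56 and -0.54) and plasmacytoid dendritic cell genes (-0.97 and -0.87), and far apart for B cell genes (-3.62 and 0.01), Kupffer cell genes (-2.08 and 1.13) and hepatocyte genes (-0.44 and 1.97).

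Markers of other cells differed between libraries in 2 ways. B cell genes were concentrated in untreated 18: the 18 tested summed to 944, 738 and 6265 CPM untreated and 336, 406 and 470 CPM treated. All 18 had a negative log2 fold change and 17 an unadjusted p below 0.05, against 3.11% of all genes lower at that p. Their median was -3.62, but the median without untreated 1 and 18 was 0.01. Ighd, the immunoglobulin D chain, read 72.8, 11.1 and 651 CPM untreated and 8.53, 11.4 and 11 CPM treated. Cd79b, a B cell receptor subunit, read 52.5, 21.4 and 564 CPM untreated and 8.53, 11.9 and 18 CPM treated. MHC class II genes were also highest in untreated 18, at 1298, 1127 and 5540 CPM untreated and 680, 641 and 881 CPM treated. Unlike B cell genes, they did not rest on that library alone: untreated 1 and 5 lay above every treated library as well. At an unadjusted p below 0.05, 12 of 14 were lower, against 3.11% of all genes. Of the 14, 7 lay wholly below, against 3.49% of all genes, and 1 had a positive value, with or without untreated 1 and 18. Their median log2 fold change was -2.03, and -0.65 without untreated 1 and 18. H2-Ab1, a class II beta chain, read 117, 77.7 and 387 CPM untreated and 35.5, 31.7 and 64.6 CPM treated, and H2-Ob, which restrains class II loading in B cells, had -2.52. Kupffer cell genes summed to 999 CPM and hepatocyte genes to 6798 CPM in untreated 18, against 38.6 to 125 and 331 to 2613 CPM in the other libraries. S100a8, a neutrophil protein, was high in untreated 1 and 18 and in treated 11 (385, 464 and 329 CPM) and lower in the other 3 (19.1 to 65 CPM). Alb, the hepatocyte albumin, read 988, 124 and 3382 CPM untreated and 315, 332 and 1104 CPM treated. The CD8 T cell markers were lowest in the same library, and the part that this mixture plays in the values above was not tested.

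Genes of plasmacytoid dendritic cells, a type I interferon-producing cell that can carry CD8 alpha in mice, showed the second pattern: they were present in every library and did not rest on untreated 18. The 18 tested summed to 1836, 1346 and 1740 CPM untreated and 1045, 784 and 1102 CPM treated, with no overlap. Of these, 16 had a negative log2 fold change. At an unadjusted p below 0.05, 12 were lower and 1 higher, against 3.11% and 2.71% of all genes, and 9 lay wholly below, against 3.49%. The median was -0.97 and, without untreated 1 and 18, -0.87. The higher member was Lag3, which T cells also express. Klk1, a kallikrein listed among this cell type's genes, read 89.8, 86.6 and 63.3 CPM untreated and 24.5, 22.1 and 31.1 CPM treated (-1.63, SE 0.30, edgeR adjusted p 0.225), and the 3 untreated libraries lay close together. Spib, a transcription factor of these cells and of B cells, read 52.5, 44.8 and 68.5 CPM untreated and 17.5, 16.9 and 31.5 CPM treated. Irf8, which dendritic cells need, read 203, 166 and 264 CPM untreated and 94, 73.9 and 155 CPM treated. Siglech, a surface lectin that defines the cell type and is named here outside the rule because of its role, read 490, 265 and 380 CPM untreated and 267, 152 and 174 CPM treated, so the groups overlapped narrowly. Scaled in all 18 libraries together, Siglech averaged 354 ± 92.4 CPM (SD, n = 3) in untreated CD3+CD8+ and 48 ± 9.11 CPM in untreated CD3-CD8- libraries. Without TMM scaling, the untreated CD3+CD8- libraries 5, 18 and 6 read 398, 451 and 62.8 CPM. On that scale untreated CD3+CD8+ 1, 5 and 18 read 476, 290 and 296 CPM. Number 6 is a library whose Cd8a level goes against its label. The transcript was thus as high in 2 of those 3 CD3+CD8- libraries as in CD3+CD8+ cells.

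The 10 named genes of smallest p wholly below were Cd209a, Klk1, Mir6236, Irf2bp2, Cd209d, Tyrobp, Cd79b, Klrb1c, Rn7s2 and Rn7s1. Cd209a and Cd209d encode DC-SIGN-like lectins of dendritic cells. Cd209a was the lowest of 12 tested genes of conventional dendritic cells, of which 3 were positive and 9 negative. The median of that list was -0.96, and -0.28 with 5 of 12 positive without untreated 1 and 18. In the 18-library fit Cd209a and Cd209d had -2.16 and -2.09 in CD3+CD8- cells, and -1.01 and -1.07 in CD3-CD8- cells. Cd209a read 27.1, 21 and 26.4 CPM untreated and 3.37, 3.42 and 4.72 CPM treated (-2.65, SE 0.44, edgeR adjusted p 0.225), and it kept -2.47 without untreated 1 and 18. Cd209d read 15.2, 19.9 and 13.2 CPM untreated and 3.59, 1.82 and 5.08 CPM treated. Tyrobp, the DAP12 adaptor of NK and myeloid receptors, read 103, 117 and 142 CPM untreated and 29.2, 20.8 and 63.1 CPM treated, and its value was -1.66 in all libraries and -1.67 without untreated 1 and 18. Klrb1c, the NK1.1 antigen of NK cells, was highest in untreated 18 (240 CPM, against 55.9 and 31.7 CPM in the other untreated and 9.58 to 24.5 CPM in the treated libraries). Of 14 tested genes of NK cells, 3 had a positive and 11 a negative value, with a median of -1.74. Without untreated 1 and 18 that median was -0.32, with 6 of 14 positive. Irf2bp2, a transcriptional corepressor, read 105, 36.4 and 105 CPM untreated and 26.3, 21.2 and 22.6 CPM treated. Mir6236 was high in both untreated libraries with a large ribosomal share. It read 727 and 119 CPM in untreated 1 and 18 and 0 to 2.2 CPM in the other 4 libraries. Rn7s2, a copy of the 7SL RNA of the signal recognition particle, read 742, 6.59 and 29 CPM untreated and 0 to 6.43 CPM treated. Rn7s1, a near-identical copy, read 364, 4.12 and 10.5 CPM untreated, the last near the 3-count limit of untreated 18. Both copies were thus high mainly in untreated 1. Reads of such copies may be split between them. The part of the ribosomal share in these 3 entries was not tested.

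**Figure D4:**
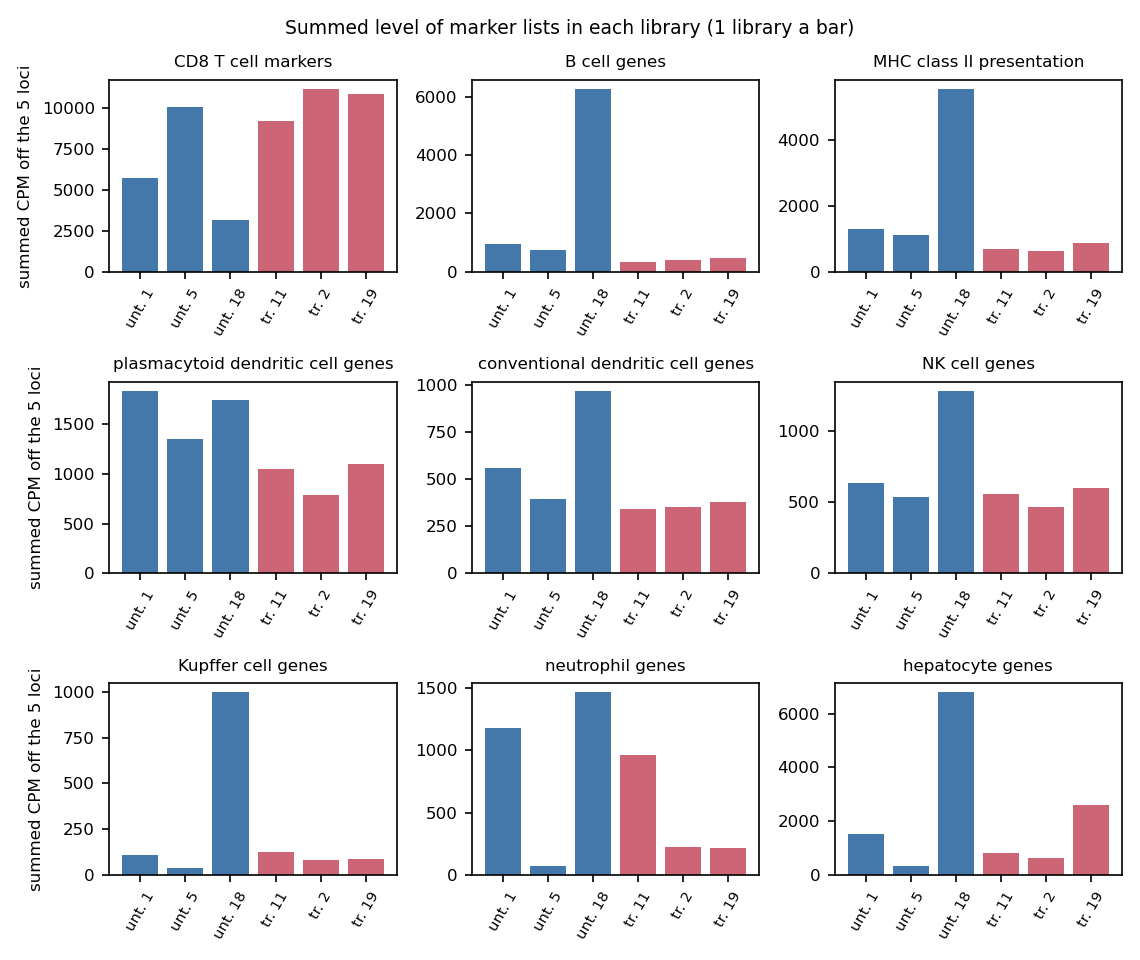
Bars give the summed CPM (linear y axis from 0) of the tested members of each marker list in 1 library, blue for untreated and red for treated. Untreated 18 is the tallest bar for B cell, MHC class II, Kupffer and hepatocyte genes, while plasmacytoid dendritic cell genes are present in all 6 libraries, with 1346 to 1836 CPM untreated and 784 to 1102 CPM treated.

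The treatment effect in CD3+CD8+ cells was set against that in the other sorted fractions of the same series, 6 CD3+CD8- and 6 CD3-CD8- samples. These fractions did not all match their labels. Untreated CD3+CD8- number 6 carried Cd8a at 872 CPM of the counts outside the 5 loci, while the other CD3+CD8- libraries carried 7.35 to 36.9 CPM. The CD3-CD8- libraries carried Cd3e at 65.7 to 449 CPM and Cd8a at 76.8 to 1421 CPM, so T cell RNA was present in them. It was not even between the groups. Cd8a read 260, 452 and 76.8 CPM in untreated 1, 5 and 18 and 1421, 669 and 953 CPM in treated 2, 11 and 19. Cd3e also lay wholly higher in the treated ones, and Cd3g had a treatment effect of 2.35 (SE 0.49) there. These marker CPM are without TMM scaling. Treated CD3+CD8- number 2 held 83.98% of its counts on the 5 loci. In an edgeR fit of all 18 libraries, 0 of 13305 genes differed in treatment effect from either fraction at an adjusted p of 0.05. At an unadjusted p below 0.05, 546 genes (4.10%) differed from CD3+CD8- cells and 509 (3.83%) from CD3-CD8- cells. For CD3+CD8- cells the count of called genes was 125 without untreated CD3+CD8+ number 5, 29 without treated CD3+CD8- number 11, 71 without treated CD3+CD8- number 19, and 143 with DESeq2.

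The estimated effect on Gzmb was higher in CD3+CD8+ than in CD3+CD8- cells, but the difference was not called and its size depended on the libraries. The log2 fold change of Gzmb in this fit was 2.10 (SE 0.47) in CD3+CD8+ and -1.06 (SE 0.46) in CD3+CD8- cells. The difference was 3.16 (SE 0.65, edgeR adjusted p 0.0979), or 2.43 (edgeR adjusted p 0.702) with the replicate number as a block. It was 2.31 (edgeR adjusted p 0.307) without untreated CD3+CD8- number 6. When untreated CD3+CD8+ 1 and 18 and treated CD3+CD8- number 2 were left out as well, it was 1.67. The negative CD3+CD8- effect includes untreated number 6, and the untreated CD3+CD8- level was 407 ± 326 CPM (SD, n = 3). Havcr2 had 2.15 (SE 0.36) and 0.31 (SE 0.33), a difference of 1.84 (SE 0.48, edgeR adjusted p 0.217), or 1.59 without untreated CD3+CD8- number 6 and 1.01 (SE 0.52) without all 4 of those libraries. PVRIG differed by 1.55 (SE 0.43), Cd101 by 1.67 (SE 0.56) and Entpd1 by 1.22 (SE 0.41), none of them called. Tox differed by 0.27 (SE 0.82), with effects of 2.22 in CD3+CD8+ and 1.95 in CD3+CD8- cells, and an interval that wide does not show that the effects were alike.

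Against CD3-CD8- cells the same genes differed little in value: the effect of Havcr2 was 1.92 (SE 0.34) there, that of Prdm1 1.67 (SE 0.28), that of Fasl 1.92 (SE 0.34) and that of Gzmb 1.73 (SE 0.46). The differences were 0.23, 0.12, -0.26 and 0.37, all smaller than their standard errors. That of Tox was -0.32 (SE 0.82). Itih5 and PVRIG were the exceptions among the 10 named above, with 1.72 (SE 0.61) and 1.15 (SE 0.42) more in CD3+CD8+ cells, but an edgeR adjusted p of 0.862 for both. The genes of smallest p for this contrast by the naming rule were AF357399, Xlr4c, Syne3, Pik3ap1 and Ltf. Xlr4c, a gene of an X-linked lymphocyte-regulated family, had -0.22 (SE 0.35) in CD3+CD8+ and 2.01 (SE 0.34) in CD3-CD8- cells. Ltf, the neutrophil granule protein lactoferrin, had 0.18 (SE 1.16) and 6.30 (SE 1.21). Pik3ap1, an adaptor that links receptors to PI3K, had 0.73 (SE 0.23) against -0.55 (SE 0.22), and Syne3, a nuclear envelope protein, had 0.81 (SE 0.33) against -0.97 (SE 0.28). For CD3+CD8- cells the rule gave small nucleolar and Cajal body RNAs (Snord15a, Snora23, Scarna6, Scarna10 and Snord17). Snord17 had effects of -9.92 (SE 2.74) in CD3+CD8+ and 8.91 (SE 2.72) in CD3+CD8- cells, where the libraries with a large ribosomal share were untreated ones in CD3+CD8+ and a treated one in CD3+CD8- cells. It read 10287 and 2464 CPM in untreated CD3+CD8+ 1 and 18 and 3.16 CPM in untreated 5. Because T cell RNA was present in the CD3-CD8- libraries, and more of it in treated ones, a like effect there cannot be told apart from RNA of the same cells.

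**Figure D5:**
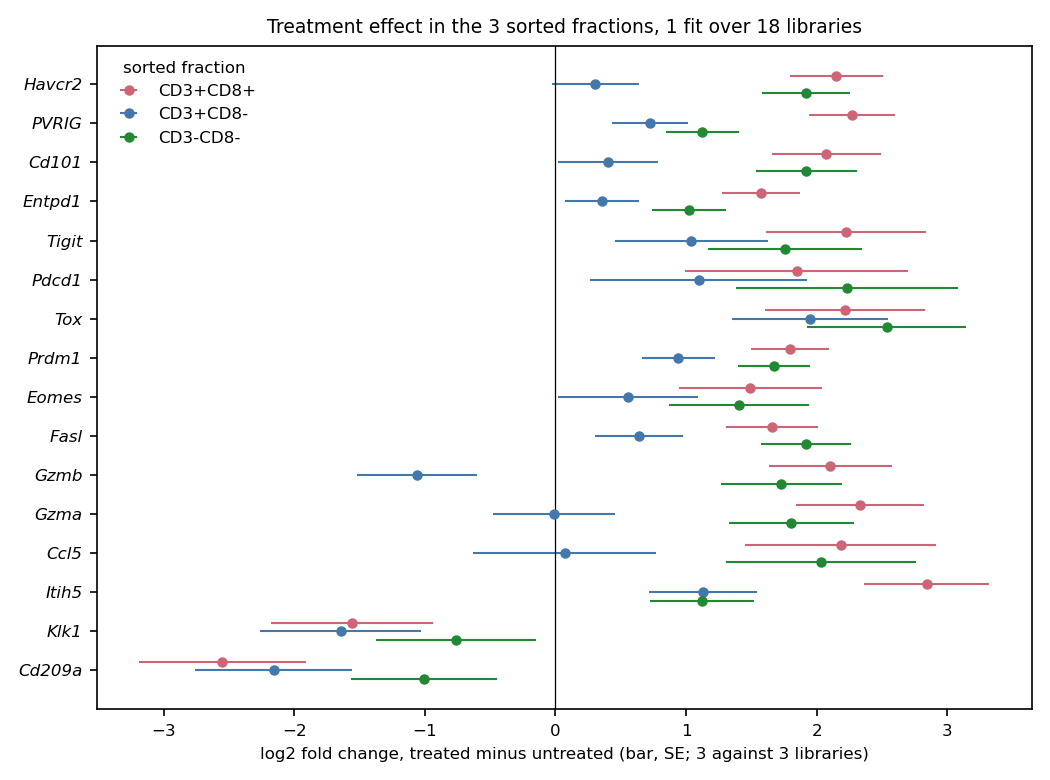
Points are log2 fold changes (x axis, treated minus untreated) of 16 genes in the 3 sorted fractions from 1 edgeR fit of 18 libraries, with bars for the SE. For most inhibitory and cytotoxic genes the CD3+CD8+ and CD3-CD8- points lie together and the CD3+CD8- point lies nearer 0 (Havcr2 2.15, 1.92 and 0.31). Tox lies well above 0 in all 3 fractions.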

How the data were processed

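RNA of CD45+CD3+CD8+ cells was compared between 3 treated and 3 untreated libraries, grouped by the treatment label. The authors deposited whole-number counts per gene (48440 identifiers, 40 library columns, of which 22 belong to no sample used here) and FPKM per gene with symbols and loci. Tools listed in the submitters' processing notes, with no role, were Cufflinks 2.2.1, HTSeq 0.13.5, DESeq2 3.20 and Trim Galore 0.6.7; which aligner and genome build were used is not given in the sources used here. Loci matched GENCODE vM21 (GRCm38) by chromosome for 100.00% of 47864 identifiers found and by start for 91.03%, and are printed 1-based. The 5 ribosomal loci were removed before library sizes were summed. edgeR 4.0.16 (R 4.3.3; filterByExpr, TMM, quasi-likelihood F-test, 2-sided, Benjamini-Hochberg, threshold 0.05) was the test, and the same tool tested differences between fractions in 1 fit of 18 libraries; scripts were tested on simulated data. SE is the log2 fold change divided by the square root of F.

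The samples, 40 gene lists (39 with a tested member) and tests were chosen with earlier results of these data known. Genes named are 30 fixed genes, the 10 of smallest p each way among those with no overlap and a mean log2 CPM of at least 3, up to 3 such members per list, and 5 per difference between fractions; other members are named as examples chosen after their values were seen, and some genes under the rule are not reported here. Replicate numbers are shared between fractions only. Same-numbered CD3+CD8+ and CD3-CD8- libraries deviated together in all 6 pairs (correlation 0.145 to 0.455). With CD3+CD8- libraries 5 pairs ran from -0.108 to 0.469. The differences between fractions above were fitted without a block, so their SE and p-values leave out any pairing by number. A fit with the replicate number as a block, for both fractions, was run as an alternative. Alternatives used DESeq2 1.42.0, limma 3.58.1 and log2(FPKM + 1), keeping genes whose mean FPKM reached 1.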

Additional observations from a re-analysis of the deposited data

How the results depend on the processing

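In CD3+CD8+ cells 0 genes were called in the 11048-gene fit. The count was also 0 with the 5 loci kept, DESeq2 size factors, library totals alone, robust estimation or other cells' genes removed. It was 0 as well with a stricter filter (3 or more libraries reaching 5 CPM) and, added after seeing the data, protein-coding genes only. Unadjusted p below 0.05 held for 529 to 640 genes in these alternatives. Leaving out untreated 1 and 18 left 1 untreated library, so no count is given for that setting. The count was 384 with no filter, 92 with DESeq2, 242 with voom, 23 with 18 libraries, 3 (0 higher) with the lane as a covariate, 279 and 226 with log2(FPKM + 1) and log2(FPKM + 0.1), 150 with FPKM rescaled off the 5 loci (added after seeing the data), and 0 to 256 with 1 library left out. FPKM moved the median of all genes by 1.47 to 2.0, and FPKM values below are relative to that shift. For the difference from CD3+CD8- cells the count was 383 with no filter, 143 with DESeq2 and 0 to 125 with 1 library left out; from CD3-CD8- cells it was 162 with no filter, 0 with DESeq2 and 0 to 2. The fit with the replicate block called 0 of 15693 genes in both and changed no call. At an unadjusted p below 0.05 it held 600 and 1470 genes, against 546 and 509 of 13305 without the block.

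The alternatives were followed for 80 of the named genes, and 65 of these kept their direction in every alternative run. Some of the 80 were chosen for having no overlap, which makes a change of sign unlikely when 1 library is left out. Other named genes were not among the 80. Of those, Snord17 (-10.05 to 0.24), Xlr4c (-0.31 to 0.01) and Ltf (-0.04 to 1.60) changed sign without untreated 1 and 18. Syne3 and Pik3ap1 did not. The rest of the 80, all with overlapping groups except Satb1, changed sign as follows, and the cause was not tested. Without untreated 1 and 18: Cd8b1 -0.43, Ifng -0.019, Cd274 0.15, S100a8 2.87 and Alb 2.19. With voom: Tnf 0.022, Tcf7 0.063, Isg15 0.32, Cd274 0.01 and Mki67 -0.67. With log2(FPKM + 1): Tcf7 0.16, Isg15 0.55, Irf7 0.33 and S100a8 0.05. With log2(FPKM + 0.1): Isg15 0.73 and Mki67 -0.013. With the lane: Mki67 -0.006 and Alb 0.17. With rescaled FPKM: Tcf7 0.60, Satb1 0.005, Il7r 0.05, Isg15 0.52, Irf7 0.62, Ifi27l2a 0.41, Cd274 0.092, Siglech 0.12, S100a8 0.58, Alb 0.49 and Rps29 0.20. With 1 library left out the range was -0.014 to 1.13 for Cd8b1, -0.55 to 0.95 for Isg15, -0.29 to 0.067 for Cd274, -0.69 to 0.55 for Mki67 and -2.18 to 0.049 for Alb. The list medians of inhibitory receptors (0.82 to 1.44), cytotoxic genes (0.58 to 1.54), exhaustion factors (0.35 to 0.74), plasmacytoid dendritic cell genes (-1.49 to -0.63) and MHC class II genes (-2.44 to -0.65) kept their sign in all 22 alternatives. That of naive genes (-0.78 to 0.10) did in 21. Untreated 1 and 18 kept the fewest counts and limit what low genes can show.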
